A study of Mus musculus with 18 samples.

Results

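The Eph receptors, ephrins, semaphorins, plexins, neuropilins, Slits and Robo receptors are the cell-surface and secreted proteins of 3 guidance systems, and their transcripts were followed here in sorted cells of cultured mouse fetal kidney. Members were taken by symbol from the protein-coding rows of the deposited table, which gave 60 of its 78317 genes: 14 Eph receptors, 8 ephrins, 20 semaphorins, 9 plexins, 2 neuropilins, 3 Slits and 4 Robo receptors. The rule used gene names and no measured value, and it was set with earlier results of these data known. Of the 60, 55 passed the filter on low counts and were tested among 16544 genes. Epha6, Epha10, Plxnb3, Robo3 and Sema4f did not pass, with 5, 15, 10, 25 and 64 counts in all over the 18 libraries.

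The kidneys were from wild-type CD1 mouse embryos at embryonic day 14. Kidneys were exposed to AAV2, a serotype of adeno-associated virus, over 4 hours, embedded in a gel of collagen I and Matrigel, and cultured for 72 hours. Each virus carried a CAG promoter, which is active in many cell types, driving mCherry and 2 short hairpin RNA (shRNA) cassettes in a mir30 backbone. The Mylk-shRNA vector targeted 2 regions of Mylk, which encodes myosin light chain kinase. The Rock1/2-shRNA vector targeted 1 region each of Rock1 and Rock2, which encode kinases that act on actomyosin contraction, and the scramble-shRNA vector carried shuffled versions of the Rock1 and Rock2 target sequences. Explants of a condition were pooled and digested, and the cells with the top 25% of mCherry signal (positive fraction) were sorted from those with the bottom 50% (negative fraction). The 3 vectors and 2 fractions gave 6 groups of 3 libraries, 1 from each of 3 litters, so that the 9 positive and 9 negative libraries came from the same 9 cultures. All 6 groups had been exposed to a virus, and an untransduced kidney was not analysed here.

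Eph receptors are receptor tyrosine kinases that bind membrane-held ephrins on a neighbouring cell, with A-type ephrins tethered by a lipid anchor and B-type ephrins spanning the membrane. Semaphorins bind plexins, and the secreted class 3 semaphorins mostly do so with a neuropilin as co-receptor. Slits are secreted ligands of Robo receptors, and the Slit2-Robo2 pair is known in the kidney for restricting where the ureteric bud grows out. These receptors act on the cytoskeleton in large part through small GTPases, some of which act upstream of the kinases encoded by Rock1 and Rock2. In vessels, Efnb2 and Ephb4 mark arteries and veins, and Sema3e acts on endothelium through Plxnd1.

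Libraries held between 3121624 and 12170830 counts, and the median library 7581392. The libraries of litter 3 had 3.95 to 9.16% of their counts on mitochondrial genes, against 2.01 to 4.02% in litters 1 and 2. The targeted transcripts showed no detected drop: Mylk under its vector was at 87.9% of scramble-shRNA in the positive fraction (95% interval 71.3 to 108%), Rock1 at 94.1% (76.7 to 115%) and Rock2 at 88.7% (70.8 to 111%). The summed CPM (a gene's count scaled to a common library total) of 4 Y-linked genes spread over 22.6 to 179 among the Rock1/2-shRNA libraries. It ran from 73.9 to 157 among the Mylk-shRNA libraries and from 76.7 to 105 among the scramble-shRNA libraries. Every listed kidney marker had counts in some library, as had every other listed marker. Nphs1, a podocyte marker, and Sox10, a marker of Schwann cells, each stayed at or under 1 CPM in every library. These levels are therefore no check on the tissue.

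Most of the tested guidance genes differed between the fractions. Averaged over the 3 vectors, 34 of the 55 tested members (61.8%) passed an adjusted p of 0.05 between positive and negative cells, 14 of them higher and 20 lower in the positive fraction. Over all 16544 genes the share was 33.6%, with 17.6% higher and 16% lower. Epha8 passed the filter only through positive libraries (3 at or above its 1.32 CPM minimum, and no negative one), so its place among the higher members was in part set by the filter. Of the 54 members that either fraction alone carried past the filter, 33 were called (61.1%), 13 higher and 20 lower, against 33% of the 14988 such genes. The size of the difference was also larger in the set: the median absolute log2 fold change was 0.36 over the members and 0.21 over all genes, while the signed medians were 0.01 and -0.03. By family, 5 Eph receptors were higher and 4 lower, 2 ephrins higher and 2 lower, 2 semaphorins higher and 9 lower, 3 plexins higher and 1 lower, 1 neuropilin higher, 1 Slit higher and 1 lower, and all 3 tested Robo receptors lower. All fold changes below are positive over negative, on the log2 scale, from edgeR's quasi-likelihood fit, and each ± is a standard error. Because these are bulk libraries of sorted cells, a lower level cannot be told apart between fewer cells of a type and less RNA per cell. CPM is not corrected for transcript length, so levels are compared between libraries and not between genes.

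**Figure D1:**
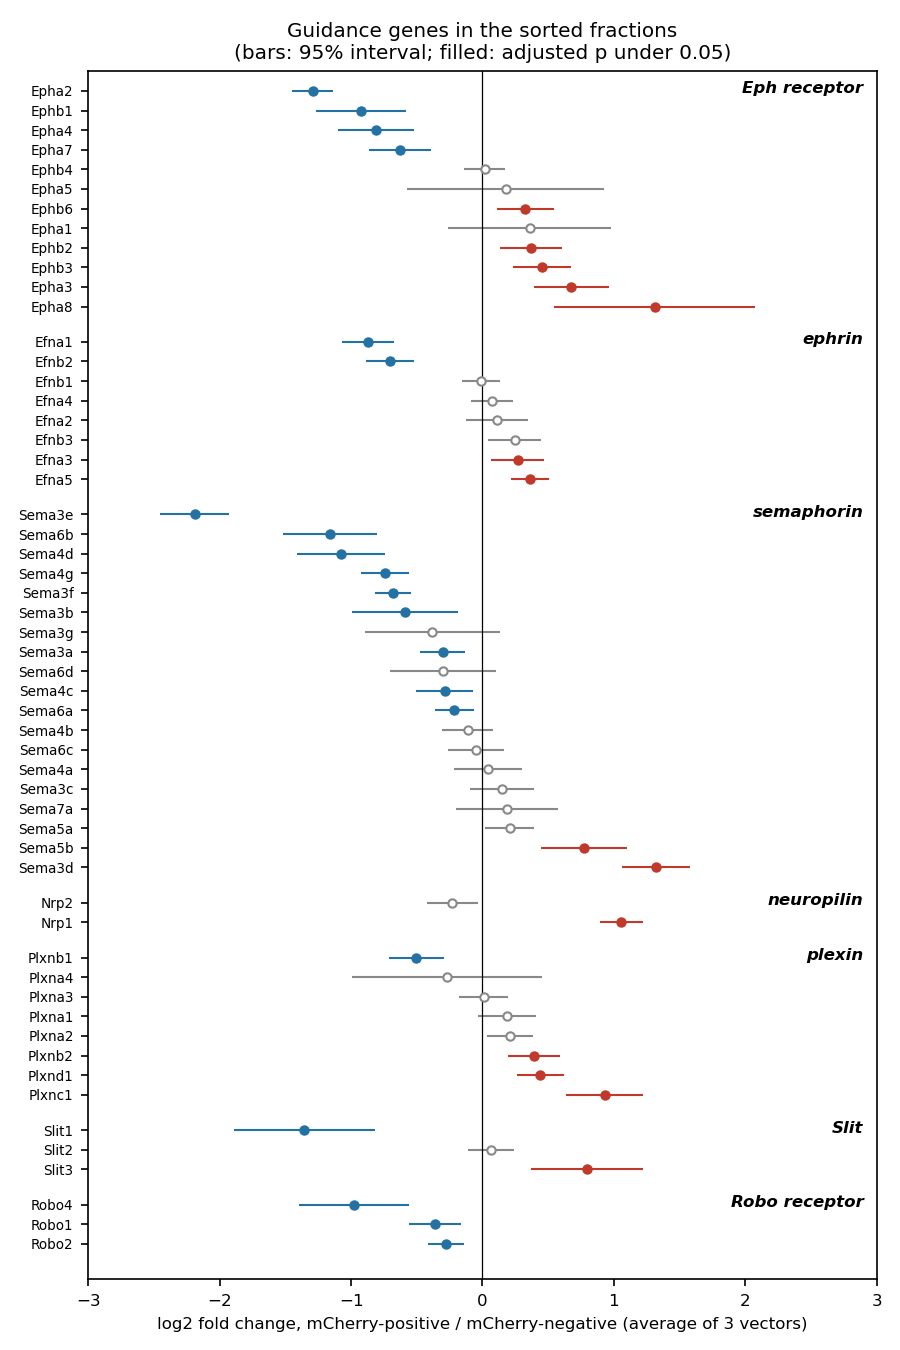
Log2 fold change between the mCherry-positive and mCherry-negative fractions (x axis, average of the 3 vectors) for the 55 tested guidance genes (y axis), ordered within each family. Bars are 95% intervals, red points are higher and blue points lower in the positive fraction at an adjusted p under 0.05, and open points did not pass. Semaphorins and Robo receptors lie mostly to the left, with Sema3e lowest at -2.19, and Nrp1 and Sema3d stand to the right.

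Without any model, the 9 positive and 9 negative CPM values did not overlap for 8 members (14.5% of those tested, against 8.72% of all genes). Nrp1 and Sema3d had every positive library above every negative one, as had 6.65% of all genes. Epha2, Efna1, Sema3e, Sema3f, Sema4g and Sema6b had every positive library below, as had 2.06% of all genes. Within cultures, 14 members were higher in the positive fraction in all 9 (25.5%, against 15.2% of all genes) and 11 were lower in all 9 (20%, against 7.59%), while 22.8% of all genes had 1 direction in all 9. Of the 34 members that passed the test, 24 had the same direction in all 9 cultures (70.6%, against 60.9% of the 5558 genes that passed).

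Among the secreted class 3 semaphorins, genes of the same class were split between the fractions. Sema3e, the ligand that binds Plxnd1 without a neuropilin, read 4.97, 4.05 and 3.81 CPM in litters 1 to 3 of the scramble-shRNA positive cells, 5.49, 3.57 and 4.23 under Mylk-shRNA and 4.48, 3.90 and 4.16 under Rock1/2-shRNA. The negative cells of the same cultures read 19.7, 15.5 and 23.9, then 21.6, 17.7 and 21.5, then 14.4, 20.1 and 19.7 CPM. Every negative library was thus above every positive one, and Sema3e was 4.56-fold lower in the positive fraction (log2 -2.19 ± 0.13, adjusted p = 2.22e-10). Sema3d, another secreted class 3 semaphorin, went the other way, from 18 to 32.7 CPM in positive cells (median 28.9) and from 6.98 to 14.2 in negative cells (median 10.3), which was 2.50-fold higher (1.32 ± 0.12, adjusted p = 1.29e-07). The lowest positive Sema3d value came from litter 3 under Mylk-shRNA and still lay above all 9 negative values. Sema3f, a ligand of Nrp2-containing receptors, ran from 36.4 to 45.3 CPM in positive and from 50.7 to 74.2 in negative cells, without overlap (-0.68 ± 0.07). Sema3b was also lower (-0.59 ± 0.19), and this call was lost when any of 4 single libraries was left out (the litter 2 libraries of scramble-shRNA positive, scramble-shRNA negative and Rock1/2-shRNA positive cells, and the litter 1 library of Mylk-shRNA positive cells). The highest adjusted p among the 4 was 0.070. It was also lost without litter 1 (-0.52, adjusted p = 0.232) or litter 2 (-0.40, adjusted p = 0.298). Sema3a, a repellent that signals through Nrp1, ran from 26.6 to 30.8 CPM in positive and from 30.1 to 43.1 in negative cells (-0.30 ± 0.08, adjusted p = 0.0077). Without litter 3 the Sema3a difference was -0.18, with an adjusted p of 0.059, and without litter 1 it was -0.34, with an adjusted p of 0.053. Sema3c and Sema3g did not pass, at 0.15 ± 0.12 and -0.38 ± 0.24.

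Nrp1, the co-receptor that class 3 semaphorins share with vascular endothelial growth factor, read 149, 174 and 183 CPM in litters 1 to 3 of the scramble-shRNA positive cells, 158, 217 and 170 under Mylk-shRNA and 137, 189 and 140 under Rock1/2-shRNA. The paired negative cells read 90.9, 71.1 and 72.5, then 80.6, 71.3 and 87.4, then 78.3, 81.3 and 67.2 CPM. Nrp1 was 2.08-fold higher in the positive fraction (1.06 ± 0.08, adjusted p = 7.27e-09), with no overlap and the same direction in all 9 cultures. Its relative Nrp2 read 11.2 to 18.9 CPM in positive and 15.3 to 23.0 in negative cells, lower in 8 of 9 cultures, and did not pass (-0.23 ± 0.09, adjusted p = 0.062). With litter as a block, Nrp2 passed at an adjusted p of 0.039.

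The 250 bases before the annotated start of 4 of these genes are printed because they mark the members that were farthest apart between the fractions among those with non-overlapping libraries, 2 in each direction. They are from RefSeq on build GRCm38.p6, on the forward strand, at chr5:14025026-14025275 for Sema3e, chr5:12382916-12383165 for Sema3d, chr8:128358823-128359072 for Nrp1 and chr4:141300971-141301220 for Epha2. Capitals mark GGGCGG or its reverse complement, the GC box that Sp-type factors are known to bind.
Sema3e: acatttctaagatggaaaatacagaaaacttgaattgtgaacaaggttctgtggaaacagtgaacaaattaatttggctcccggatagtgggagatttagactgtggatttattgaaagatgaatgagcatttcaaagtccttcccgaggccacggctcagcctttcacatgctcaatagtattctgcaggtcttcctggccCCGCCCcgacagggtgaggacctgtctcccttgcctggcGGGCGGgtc
Sema3d: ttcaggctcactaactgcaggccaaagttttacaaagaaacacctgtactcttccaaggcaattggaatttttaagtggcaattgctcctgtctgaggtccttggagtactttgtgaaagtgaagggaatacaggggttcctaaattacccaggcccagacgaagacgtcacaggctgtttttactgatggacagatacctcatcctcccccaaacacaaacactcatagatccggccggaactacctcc
Nrp1: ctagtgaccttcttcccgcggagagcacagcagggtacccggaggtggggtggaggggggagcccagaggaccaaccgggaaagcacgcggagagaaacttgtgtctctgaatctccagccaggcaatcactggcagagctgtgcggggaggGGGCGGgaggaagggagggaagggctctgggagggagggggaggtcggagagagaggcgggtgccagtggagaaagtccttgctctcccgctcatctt
Epha2: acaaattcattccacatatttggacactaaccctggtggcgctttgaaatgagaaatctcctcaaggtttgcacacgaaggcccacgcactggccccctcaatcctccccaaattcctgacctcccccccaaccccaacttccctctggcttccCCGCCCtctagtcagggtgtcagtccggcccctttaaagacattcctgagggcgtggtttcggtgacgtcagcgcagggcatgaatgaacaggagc
The Sema3e window holds 2 GC boxes, Nrp1 and Epha2 hold 1 each and Sema3d holds none. No window of the 4 holds TATAAA, the TATA box, on either strand. Over the 53 members with an entry in the RefSeq table, 73.6% of the windows hold GGGCGG on either strand, against 32.9% of the windows of 27025 genes. TATAAA was in 3.77% of the members' windows and 13% of all, and GGAATG, a sequence known from TEAD factors, in 11.3% and 12.6%. The members' windows had a median of 16 CpG dinucleotides, against 6 over all genes. The 27025 genes were not chosen by gene type or expression, while all members are protein-coding, so the 2 sets are not matched. By call, GGGCGG was in 71.4% of the windows of higher members, 62.5% of lower and 88.9% of tested members not called. These matches describe the letters in the windows and say nothing of binding.

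The membrane-bound semaphorins of classes 4 to 7 were lower in the positive fraction where they passed, with 1 exception. Sema4d, a ligand of Plxnb1, ran from 4.48 to 12.4 CPM in positive cells (median 7.22) and from 8.48 to 20.7 in negative cells (median 15.5), so the ranges overlapped, and it was 2.11-fold lower (-1.07 ± 0.16, adjusted p = 3.26e-05). It was lower in 8 of 9 cultures, and the exception was scramble-shRNA in litter 3, at 9.20 CPM in positive and 8.48 in negative cells. Sema4g ran from 16.4 to 26.3 in positive and from 27.0 to 35.9 CPM in negative cells, without overlap (-0.74 ± 0.09, adjusted p = 2.01e-06). Sema6b was lower as well (-1.16 ± 0.17), at 1.22 to 3.10 against 3.86 to 6.86 CPM. Sema4c (-0.29 ± 0.10) and Sema6a (-0.21 ± 0.07) passed narrowly. Without litter 3 they stood at -0.12 (adjusted p = 0.184) and -0.08 (adjusted p = 0.416), and without litter 1 at -0.38 (adjusted p = 0.062) and -0.23 (adjusted p = 0.154). Sema4c was lost without litter 2 too (adjusted p = 0.138), and Sema6a without the filter on low counts (adjusted p = 0.105). Sema4c was also lost in 10 of the 18 fits that left out a single library, and Sema6a in that without the Rock1/2-shRNA negative library of litter 3 (adjusted p = 0.054). Sema5b was the exception, higher in all 9 cultures (0.77 ± 0.16) at 3.18 to 7.39 against 1.80 to 4.49 CPM. The other 6 tested members of these classes, Sema4a, Sema4b, Sema5a, Sema6c, Sema6d and Sema7a, gave values from -0.30 to 0.21 and did not pass. With litter as a block, Sema5a passed at 0.22 ± 0.08 (adjusted p = 0.039).

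Of the 8 tested plexins, the receptors of these ligands, 3 were higher and 1 lower in the positive fraction. Plxnc1, a receptor of Sema7a, ran from 4.90 to 9.66 CPM in positive cells and from 3.08 to 5.31 in negative cells, higher in all 9 cultures (0.93 ± 0.14, adjusted p = 3.92e-05). The ranges met only through the positive litter 3 library of Rock1/2-shRNA, at 4.90 CPM. Plxnd1, the receptor of Sema3e, ran from 88.6 to 143 CPM in positive and from 61.8 to 92.4 in negative cells, again higher in all 9 cultures (0.44 ± 0.09, adjusted p = 5.58e-04). Plxnb2, which binds class 4 semaphorins, ran from 157 to 285 and from 124 to 203 CPM (0.39 ± 0.09, adjusted p = 0.0029). Without litter 2 the calls of Plxnd1 and Plxnb2 were lost, at adjusted p of 0.052 and 0.086. Plxnb1, the Sema4d receptor, was lower in all 9 cultures (-0.50 ± 0.10), at 9.73 to 14.7 against 12.8 to 21.3 CPM. The 4 A-type plexins, which pair with neuropilins, did not pass, with values from -0.27 for Plxna4 to 0.21 for Plxna2. With litter as a block, Plxna2 passed at 0.21 ± 0.08 (adjusted p = 0.035). Ligand and receptor of a known pair therefore lay on opposite sides for Sema3e (lower) and Plxnd1 (higher), and on the same side for Sema4d and Plxnb1 (lower). Plxnb2, the other plexin named here for class 4 semaphorins, was higher.

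**Figure D2:**
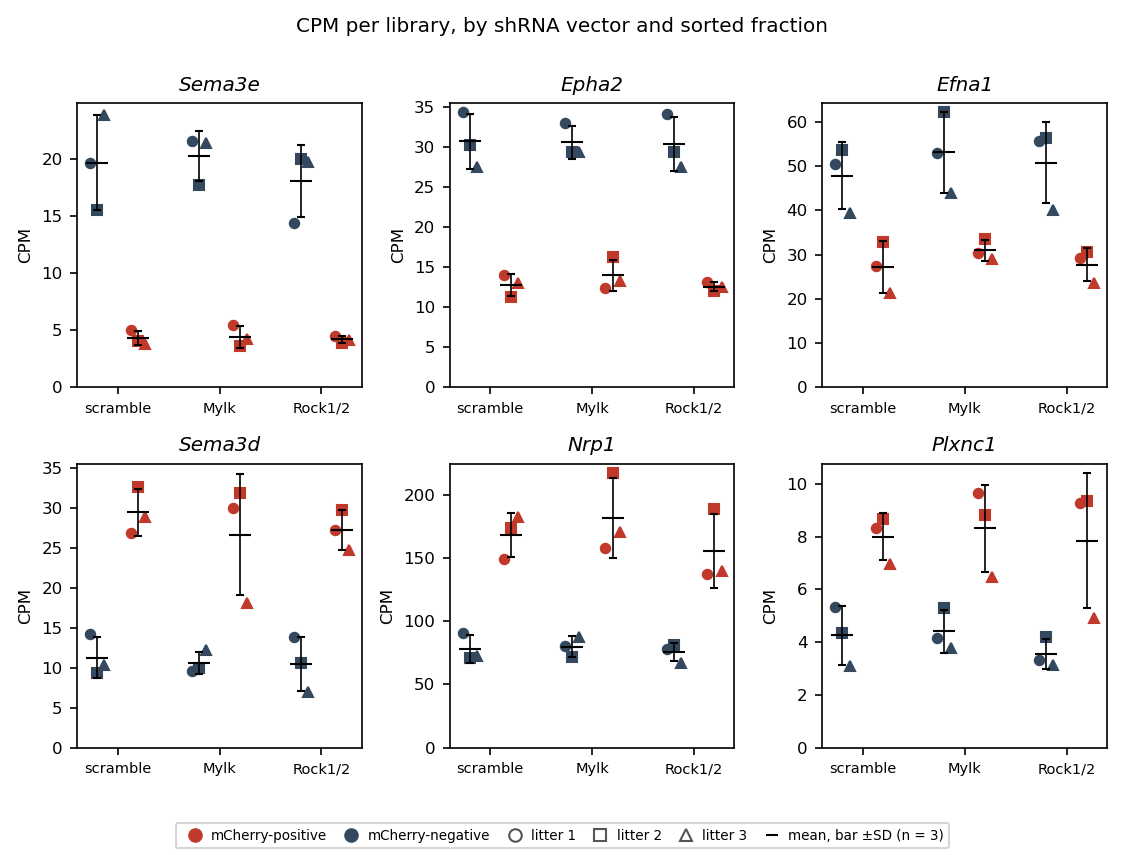
CPM per library (y axes) for 6 guidance genes, by vector (x axes) and fraction, with the litter given by the symbol. Horizontal lines are group means and bars ± 1 SD of 3 libraries. Sema3e, Epha2 and Efna1 are lower, and Sema3d, Nrp1 and Plxnc1 higher, in positive than in negative cells under all 3 vectors.

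Eph receptors divided by gene and not by class. Epha2, an epithelial receptor of A-type ephrins, read 14, 11.3 and 13 CPM in litters 1 to 3 of the scramble-shRNA positive cells, 12.4, 16.2 and 13.2 under Mylk-shRNA and 13.1, 12.1 and 12.5 under Rock1/2-shRNA. The negative cells read 34.4, 30.3 and 27.5, then 33.0, 29.4 and 29.4, then 34.1, 29.4 and 27.6 CPM. The groups did not overlap, and Epha2 was 2.45-fold lower in the positive fraction (-1.29 ± 0.07, adjusted p = 2.10e-10). Ephb1, a receptor of B-type ephrins, ran from 2.69 to 7.45 CPM in positive and from 7.20 to 12.1 in negative cells, lower in all 9 cultures (-0.92 ± 0.16). Epha4, which binds ephrins of either type, ran from 21.3 to 43.4 (median 34.0) and from 35.8 to 70.8 (median 57.6) CPM, also lower in all 9 cultures (-0.81 ± 0.14, adjusted p = 1.87e-04). Its ranges overlapped across litters and not within them, since litter 3 was low in either fraction, at 21.3 to 29.2 and 35.8 to 40.4 CPM. Epha7 was lower in 8 of 9 cultures (-0.63 ± 0.11), at 14 to 21.7 against 17.7 to 33.6 CPM.

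On the higher side, Epha3, a receptor of Efna5, ran from 9.41 to 15.7 CPM in positive and from 4.15 to 9.77 in negative cells (0.68 ± 0.14, adjusted p = 6.80e-04). Ephb3, a receptor of B-type ephrins, ran from 8.56 to 13.5 and from 7.05 to 9.91 CPM (0.45 ± 0.11, adjusted p = 0.0026). Epha3 and Ephb3 were each higher in all 9 cultures, with small overlaps of the ranges, and the Ephb3 call was lost without litter 1 (adjusted p = 0.064) or litter 2 (adjusted p = 0.105). Ephb2 (0.37 ± 0.11) and Ephb6, a member known to lack kinase activity (0.33 ± 0.10), were higher by less. Ephb6 was lost without any of the 3 litters (adjusted p = 0.070 to 0.154), with the DESeq2 test (adjusted p = 0.062) and without the filter (adjusted p = 0.234), and Ephb2 without litter 2 (adjusted p = 0.196). Epha8 was higher (1.31 ± 0.36) on only 102 counts in all, at 0.71 to 2.82 CPM in positive and 0.16 to 0.87 in negative cells, and without litter 3 it did not pass (0.99 ± 0.42, adjusted p = 0.079). In the RefSeq gene order the macrophage genes C1qa, C1qb and C1qc lie between Ephb2 and Epha8. Their log2 fold changes were 6.29, 6.30 and 6.53, and the part of that neighbourhood in the Ephb2 and Epha8 values was not tested. Ephb4, the venous receptor of Efnb2, read 78.6 to 114 CPM in positive and 78.3 to 112 in negative cells, and its difference of 0.02 had a 95% interval from -0.14 to 0.17. Epha1 and Epha5 did not pass, at 0.36 ± 0.30 and 0.18 ± 0.36.

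A-type ephrins were called in either direction, and the 1 called B-type ephrin was lower. Efna1, a ligand of Epha2, ran from 21.2 to 33.6 CPM in positive cells (median 29.2) and from 39.3 to 62.2 in negative cells (median 53.1), without overlap, and was 1.83-fold lower (-0.87 ± 0.09, adjusted p = 6.49e-07). Efnb2, the arterial ligand of Ephb4, ran from 21.4 to 43.1 and from 40.6 to 55.8 CPM, lower in all 9 cultures (-0.70 ± 0.09, adjusted p = 3.51e-06). Only the positive library of Mylk-shRNA in litter 2, at 43.1 CPM, reached into the negative range. Efna5 was higher in 8 of 9 cultures (0.36 ± 0.07), at 28.9 to 39.3 against 21.5 to 33.9 CPM. Efna3 was higher by 0.27 ± 0.10, a call that was lost in 9 of the 18 fits that left out a single library (highest adjusted p 0.107, without the Mylk-shRNA positive library of litter 1). It was also lost with the DESeq2 test (adjusted p = 0.058), without the filter (adjusted p = 0.131), without litter 1 (0.21, adjusted p = 0.286) and without litter 2 (0.36, adjusted p = 0.099). Efna2, Efna4, Efnb1 and Efnb3 lay between -0.01 and 0.25 and did not pass, although Efna2 was higher in positive cells in all 9 cultures. Efnb3 passed with litter as a block (adjusted p = 0.0019, against 0.055 without).

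Slits and Robo receptors had members on either side. Slit3 ran from 20.8 to 56.9 CPM in positive cells (median 36.9) and from 11.5 to 28.2 in negative cells (median 21.9), and was 1.74-fold higher (0.80 ± 0.20, adjusted p = 0.0058). The ranges overlapped because litter 3 was low in either fraction, at 20.8 to 28.2 and 11.5 to 14.4 CPM, while every culture had more Slit3 in its positive cells. The call was lost without litter 1 (adjusted p = 0.090) or litter 2 (adjusted p = 0.065), at log2 fold changes of 0.90 and 0.70, and without the filter on low counts (adjusted p = 0.072). Slit2, the ligand known from ureteric bud outgrowth, read 31.6 to 55.3 CPM in positive and 30.1 to 37.8 in negative cells, and its difference of 0.07 had a 95% interval from -0.11 to 0.24. Slit1 was lower (-1.35 ± 0.25) at 1.03 to 3.18 against 1.55 to 6.41 CPM, in 8 of 9 cultures, and was lost without litter 1 (adjusted p = 0.069) or litter 2 (adjusted p = 0.061).

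Robo4, the Robo receptor of endothelium, ran from 1.92 to 5.77 CPM in positive and from 4.86 to 15 in negative cells, lower in all 9 cultures (-0.98 ± 0.20, adjusted p = 7.76e-04). Robo1 ran from 29.9 to 54.8 and from 42.3 to 65.1 CPM, lower in 7 of 9 cultures (-0.36 ± 0.09, adjusted p = 0.0059). Robo2, the receptor of Slit2 in the nephrogenic tissue, ran from 80.8 to 108 and from 88.9 to 145 CPM, lower in 8 of 9 cultures (-0.28 ± 0.07, adjusted p = 0.0027). The 3 Robo receptors thus shared a direction, with much overlap between the ranges of Robo1 and Robo2. Without litter 1, Robo1 was at -0.26 (adjusted p = 0.209) and Robo2 at -0.19 (adjusted p = 0.144).

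Members that neighbour each other gave like and unlike directions. In the RefSeq gene order of build GRCm38.p6, Sema3d and Sema3a are adjacent on chromosome 5, with Sema3e 3 genes further on, and were higher, lower and lower. Efna1, Efna3 and Efna4 are adjacent on chromosome 3 and were lower, higher and not called. Robo1 and Robo2 are adjacent on chromosome 16 and were each lower, as were Sema3b and Sema3f, which lie 3 genes apart on chromosome 9.

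Markers of several kidney cell types, though not all, moved between the fractions at the same time. Macrophage markers summed to 168 to 373 CPM in positive and 6.08 to 13.1 in negative cells, with 9 of 9 higher. Stromal markers summed to 5427 to 8657 and 3800 to 4469 CPM, with 10 of 11 higher, and 7 of 8 smooth muscle and pericyte markers were higher. Nephron progenitor markers were lower in 8 of 9, at 659 to 907 against 674 to 1445 CPM, and early nephron and podocyte markers in 6 of 8, with 2 higher, at 258 to 337 against 446 to 725 CPM. Ureteric bud markers were lower in 7 of 10, at 70.9 to 116 against 109 to 185 CPM. Endothelial markers were lower in 6 of 11 and higher in 2, at 157 to 283 against 204 to 341 CPM. Of the erythroid list, 4 of 5 tested markers were higher. Proximal tubule markers mostly did not pass, with 6 of 7 not called and 1 lower, at 53.5 to 148 against 49.8 to 120 CPM. Of 5 tested neuron and Schwann cell markers, 2 were higher and 1 lower, at 46.3 to 61.5 against 41.8 to 61.3 CPM. Dissociation stress markers were lower in 2 of 11, and their sums stood apart in litter 1, at 3088 to 4495 CPM in its 6 libraries against 760 to 1638 CPM in litters 2 and 3. No marker of any list was at 0 in all 18 libraries. The part of these shifts in the differences of the guidance genes was not tested.

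**Figure D3:**
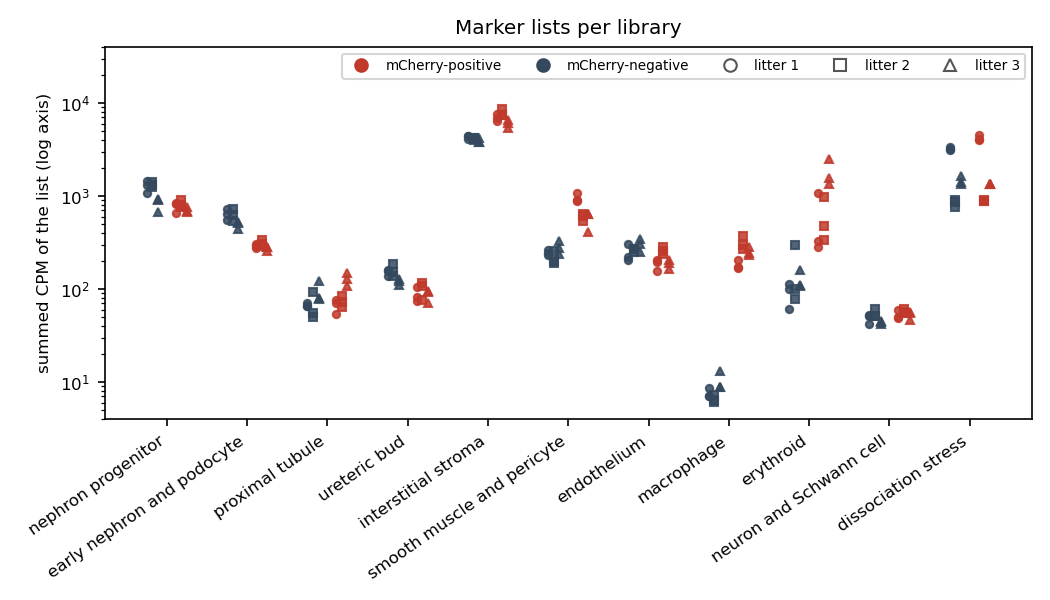
Summed CPM of each marker list (y axis, log scale) in each of the 18 libraries, by fraction (colour) and litter (symbol). Macrophage sums are 168 to 373 in positive and 6.08 to 13.1 in negative cells, stromal and smooth muscle sums are also higher in positive cells, and early nephron and podocyte sums lower.

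Under each vector alone, the same fraction contrast passed for fewer members, with each contrast resting on 3 libraries against 3. Under scramble-shRNA 14 members were called (25.5%, against 12.3% of all genes), 4 of them higher and 10 lower, where 7.43% and 4.85% of all genes were. Under Mylk-shRNA there were 18 (32.7%, against 13.2%), 7 higher and 11 lower, beside 8.07% and 5.14% of all genes. Under Rock1/2-shRNA there were 15 (27.3%, against 11.2%), 3 higher and 12 lower, beside 6.94% and 4.3% of all genes. With litter as a block, the counts were 24 for scramble-shRNA, 27 for Mylk-shRNA and 21 for Rock1/2-shRNA. Shares of all genes in the blocked fit are not given here. In that fit Slit3 was called under each vector, at 0.78 ± 0.14 for scramble-shRNA, 0.90 ± 0.14 for Mylk-shRNA and 0.73 ± 0.14 for Rock1/2-shRNA. Without the block, the scramble-shRNA count was 7 without the positive library of litter 2 and 9 without the negative library of litter 1, and the Mylk-shRNA count was 11 without the positive library of litter 1 or of litter 2. Epha2, Efna1, Efnb2, Nrp1, Plxnc1, Sema3d, Sema3e, Sema3f and Sema4g were called under all 3 vectors. Of the 34 members called in the average, 6 were called under 2 vectors, 8 under 1 and 11 under none alone. Epha7, Ephb1, Robo4, Sema4d and Sema6b were called under Mylk-shRNA and Rock1/2-shRNA and not under scramble-shRNA, and Epha4 under scramble-shRNA and Rock1/2-shRNA. With litter as a block most of this pattern was gone. In that fit Epha7, Ephb1, Sema4d and Sema6b were called under scramble-shRNA (adjusted p = 0.0030, 0.0041, 0.011 and 0.037), Epha4 under Mylk-shRNA (adjusted p = 3.96e-05), and 16 members under all 3 vectors. Robo4 was still not called under scramble-shRNA. None of these patterns was detected as a difference between vectors, because the test of that difference, below, passed for no member.

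**Figure D4:**
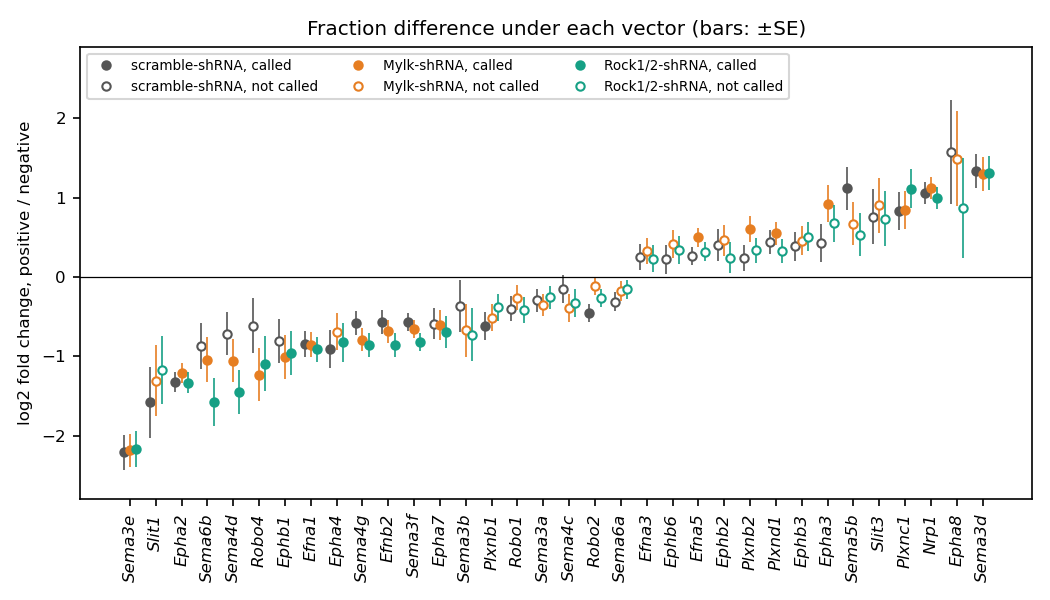
Log2 fold change between the positive and negative fractions (y axis) under each vector for the 34 guidance genes called in the average (x axis, ordered by the average). Bars are ± 1 standard error and filled points passed an adjusted p of 0.05 under that vector. The 3 points of Sema3e lie between -2.21 and -2.17 and those of Nrp1 between 1.00 and 1.12.

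A second question of the design is whether the vectors aimed at the actomyosin kinases altered these genes. As no drop of the targeted transcripts was detected, these are comparisons of vectors. In the positive fraction no member and no other gene of the 16544 passed (0% called) in Mylk-shRNA against scramble-shRNA, Rock1/2-shRNA against scramble-shRNA or Mylk-shRNA against Rock1/2-shRNA, by edgeR's quasi-likelihood test or by DESeq2. At an unadjusted p under 0.05 edgeR and DESeq2 counted 0 members in each, where edgeR counted 258, 145 and 199 of all genes. Members' log2 fold changes ran from -0.25 to 0.54, from -0.43 to 0.45 and from -0.40 to 0.53, with a median standard error of 0.18 in each. The first 2 comparisons share the scramble-shRNA libraries, as do their counterparts in the negative fraction.

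The members with the smallest p in the positive fraction were Efnb3 (0.27 ± 0.17), Plxnd1 (0.24 ± 0.15) and Epha3 (0.36 ± 0.23) for Mylk-shRNA against scramble-shRNA. For Rock1/2-shRNA against scramble-shRNA they were Epha3 (0.42 ± 0.24), Efna5 (-0.21 ± 0.12) and Ephb6 (0.27 ± 0.18), and for Mylk-shRNA against Rock1/2-shRNA Plxna2 (0.25 ± 0.15), Sema3c (0.32 ± 0.21) and Efnb2 (0.23 ± 0.16). Epha3 read 9.41, 9.94 and 11.1 CPM in the scramble-shRNA positive cells, 12.1, 15.7 and 11.8 under Mylk-shRNA and 14.1, 14.2 and 12.2 under Rock1/2-shRNA. All 6 values under the targeting vectors lay above the 3 under scramble-shRNA, yet the differences stayed under 2 standard errors.

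In the negative fraction no member passed either, nor did any gene (0% called), by edgeR or by DESeq2. At an unadjusted p under 0.05 edgeR counted 3 members (285 of all genes) for Mylk-shRNA against scramble-shRNA, 2 (200) for Rock1/2-shRNA against scramble-shRNA and 0 (121) for Mylk-shRNA against Rock1/2-shRNA, and DESeq2 also counted 3, 2 and 0 members. Robo2 read 145, 110 and 106 CPM under scramble-shRNA, 88.9, 97.9 and 92.9 under Mylk-shRNA and 112, 98.7 and 104 under Rock1/2-shRNA. The Mylk-shRNA values lay below the scramble-shRNA values, and its log2 fold change was -0.37 ± 0.11 (unadjusted p = 0.0040, edgeR adjusted p = 1). For Rock1/2-shRNA, Robo2 was at -0.20 ± 0.11 with overlapping values. Sema7a, a lipid-anchored semaphorin, read 2.38, 1.48 and 1.29 CPM under scramble-shRNA, 3.71, 3.07 and 2.66 under Mylk-shRNA and 2.87, 3.69 and 3.56 under Rock1/2-shRNA. Its log2 fold changes against scramble-shRNA were 0.85 ± 0.32 and 0.92 ± 0.32 (edgeR adjusted p = 1 in each), without overlap. Efna5 read 33.9, 26.7 and 23.7 CPM under scramble-shRNA, 23.1, 22.6 and 24.6 under Mylk-shRNA and 23.8, 25.6 and 21.5 under Rock1/2-shRNA, at -0.27 ± 0.12 and -0.26 ± 0.12, and its groups overlapped. In Mylk-shRNA against Rock1/2-shRNA the smallest p belonged to Robo2 (-0.17 ± 0.11), Plxnc1 (0.35 ± 0.25) and Plxna3 (0.20 ± 0.15).

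**Figure D5:**
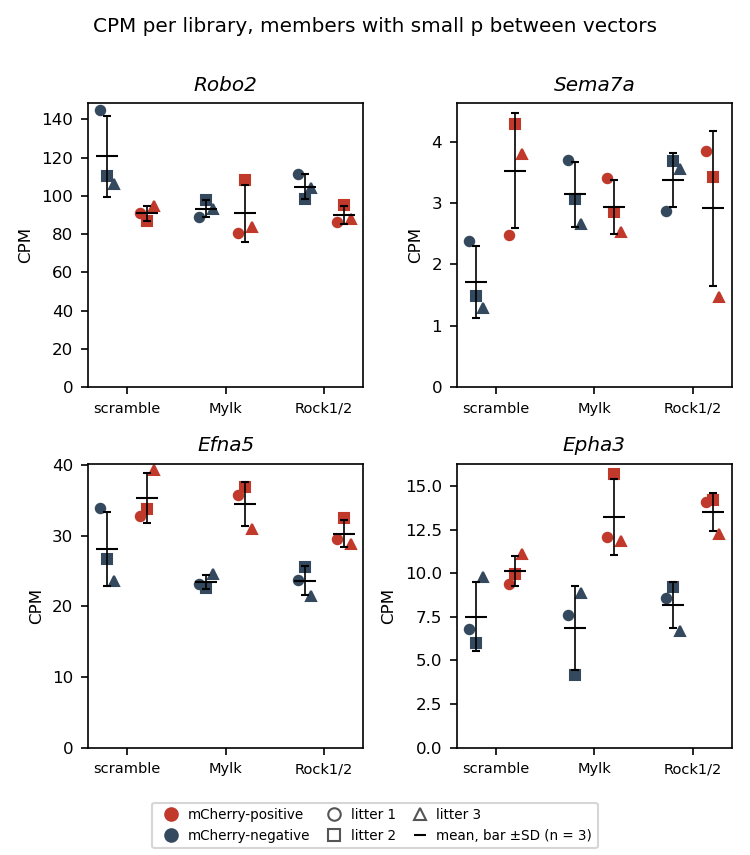
CPM per library (y axes) of Robo2, Sema7a, Efna5 and Epha3, by vector (x axes), fraction (colour) and litter (symbol), with group means and ± 1 SD of 3 libraries. The negative scramble-shRNA libraries are the highest of the negative ones for Robo2 on average and the lowest for Sema7a, and no vector difference passed the adjusted threshold.

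Whether a vector shifted the fraction difference itself was tested as an interaction against scramble-shRNA. No member and no gene passed for either vector (0% called) by edgeR or DESeq2. At an unadjusted p under 0.05 edgeR counted 2 members (217 of all genes) for Mylk-shRNA and 1 (145) for Rock1/2-shRNA, and DESeq2 1 member for each. Sema7a gave the largest shifts, -1.10 ± 0.45 and -1.20 ± 0.46, which come mostly from the same low scramble-shRNA negative values as above. Under Mylk-shRNA it was followed by Robo2 (0.35 ± 0.16) and Plxnb2 (0.37 ± 0.23), and under Rock1/2-shRNA by Sema4d (-0.73 ± 0.39) and Sema6b (-0.71 ± 0.43). The edgeR adjusted p was 0.9998 or above for every member in the vector comparisons and interactions. In simulated counts, each gene had 1 mean over all libraries, with the libraries' own sizes and no litter effect. Only genes of at least 5 CPM were changed, so the recovery does not cover members as low as Sema7a. There, the comparison of Mylk-shRNA with scramble-shRNA in positive cells recovered 27% of genes changed 1.5-fold and 68% of those changed 2-fold.

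Other guidance genes were followed in 2 further lists. Of 18 netrin, Unc5, repulsive guidance molecule and FLRT genes, 15 were tested. In the average of the vectors 5 were higher and 2 lower in positive cells (46.7% called, against 33.6% of all genes). The higher ones were the netrin genes Ntng1 (1.67 ± 0.17), Ntn1 (1.62 ± 0.18) and Ntn3 (1.05 ± 0.12), with the netrin receptor Unc5d (0.93 ± 0.28) and the repulsive guidance molecule Rgma (0.28 ± 0.08). The lower ones were Unc5b (-0.36 ± 0.09), a netrin receptor of endothelium, and Flrt3 (-0.41 ± 0.11). Of 44 intracellular effectors and sheddases, 42 were tested, with 5 higher and 10 lower (35.7%, near the 33.6% of all genes). The effectors named next are among the called ones. The list also holds Crmp1, Dpysl2, Dpysl4, Mical3 and Rras, whose values are not given here, so no family is described as a whole. Among the collapsin response mediators, which relay semaphorin signals to the cytoskeleton, Dpysl3 was higher (1.14 ± 0.10) and Dpysl5 lower (-1.55 ± 0.16). Of the flavoprotein oxidases that act on actin below plexins, Mical1 (0.66 ± 0.09) and Mical2 (0.54 ± 0.11) were higher. Arhgef16, a guanine nucleotide exchange factor, was lower (-1.83 ± 0.27), as was Rras2 (-0.36 ± 0.07).

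Litter 3 stood apart for some members. In each fraction its CPM lay wholly below those of litters 1 and 2 for Epha4, Ephb4, Efna2, Efna3, Efnb1, Plxnb2 and Slit3 (12.7% of the members tested, against 8.9% of all genes) and wholly above them for Plxna4 (1.82%, against 3.31%). Plxna4, a co-receptor of Sema3a, read 8.32 to 9.20 CPM in the positive and 8.63 to 11.6 in the negative libraries of litter 3, against at most 6.67 and 6.49 CPM in the other litters. Ephb4 read 78.6 to 90.5 and 78.3 to 83.4 CPM in litter 3. The libraries of litter 3 also had a higher mitochondrial share and fewer counts (median 3987213, against 9169669 in the other litters), and its positive libraries had the highest erythroid sums (1346 to 2504 CPM, against 280 to 1083). The part of these in the values was not tested. With the 6 libraries of litter 3 left out, 33 members were called between the fractions, 29 of them among the 34. The share of all genes without litter 3 is not given here.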

How the data were processed

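Poly(A) RNA of 18 libraries was captured, reverse transcribed and tagmented from 100 to 300 ng of total RNA, per the labels' protocols. The authors deposited 1 table of 78409 rows, in which every library has a column of estimated counts and a column of CPM, and no column was left without a sample. Per the submitters' processing notes, the reads were handled with FastQC 0.12.1, fastp 0.24.0, MultiQC 1.32, SAMtools 1.22.1, STAR 2.7.11 and the featureCounts program of Subread 2.1.1, on build GRCm39. Tool settings, gene annotation and strand handling are not given in the labels, so reads of a gene and an overlapping antisense gene cannot be told apart. In each library 22.1 to 27.4% of the nonzero deposited counts were fractions. Each deposited CPM is the authors' count over that library's summed counts, times 1e+06.

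Here, counts were rounded, 92 spike-in rows were left out, and genes with low counts were removed by filterByExpr of edgeR on the 6 groups (at least 10 counts, 15 in total). The edgeR quasi-likelihood test (robust, TMM scaling, 1 mean per group, 12 residual degrees of freedom) was fitted to all 18 libraries, with Benjamini-Hochberg adjustment over 16544 genes in each of 12 comparisons and a threshold of 0.05. The common biological coefficient of variation was 0.165. CPM values in the text are the deposited ones, with 1 SD in the plots, and intervals are 95% intervals of the fit. The members and lists were chosen with earlier results of these data known. Values per library are given for the 8 highest and 8 lowest called members with a mean of at least 5 CPM, and for a set of receptor-ligand genes known from kidney or vessel work. Beyond the first rule, the 3 members with the smallest p are given for each vector comparison and interaction.

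A replicate number marks a litter, per the labels, so same-numbered libraries share a litter and the 2 fractions of a culture come from the same pool of cells. Deviations from group means correlated at r = 0.237 to 0.639 over the 45 pairs of the same litter and at -0.544 to 0.310 over the 90 other pairs. For the 18 pairs of libraries within a group, chi-square per gene was 4.31 to 52.5, so none was a duplicate. The alternatives were DESeq2 size factors, the DESeq2 test, no filter, litter or culture as a block, only the compared groups, and each library or litter left out. Tested on simulated counts of 16544 genes, the average fraction contrast recovered 79% of genes changed 1.5-fold and 95% of those changed 2-fold. The changed genes had at least 5 CPM, and no litter effect was simulated. Promoter windows are from RefSeq on GRCm38.p6, another build than the counts, and no other coordinate is given. The analysis ran in R 4.3.3 with DESeq2 1.42.0, edgeR 4.0.16 and limma 3.58.1.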

Additional observations from a re-analysis of the deposited data

How the results depend on the processing

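The count of 34 guidance genes between the fractions was 34 with DESeq2's size factors, 32 with the DESeq2 test, 31 without the low-count filter, 38 with litter as a replicate block and 37 with culture as a block. It was 31 to 36 with 1 library left out and 23 to 33 with 1 litter left out, a range of 23 to 36. Of the 34, 19 passed under all 26 alternatives, and 15 were lost in at least 1, Efna3 and Sema4c in 13 each. The pairing by litter added Efnb3, Nrp2, Plxna2 and Sema5a to the average and removed none. Under single vectors, the scramble-shRNA count of 14 became 24 with litter and 22 with culture as a block, the Mylk-shRNA count of 18 became 27 and 25, and the Rock1/2-shRNA count of 15 became 21 and 20. Leaving out a library or a litter moved the scramble-shRNA count over 4 to 18, the Mylk-shRNA count of 18 over 4 to 22 and the Rock1/2-shRNA count of 15 over 7 to 17. The lowest values came without litter 1 or 2 (4 and 4 for scramble-shRNA, 4 and 8 for Mylk-shRNA, 7 and 9 for Rock1/2-shRNA), and without litter 3, which leaves as many libraries, the counts were 18, 22 and 17. The cause of these moves was not tested. Shares of all genes under these alternatives are not given here, so changes common to all genes cannot be told apart. The vector comparisons and interactions stayed at 0 under every alternative run. Ephb4 and Slit2, which did not pass, changed sign. Ephb4 was -0.00093 without the filter and ran from -0.032 to 0.066 over the fits that left out a library or litter, and Slit2 ran from -0.017 to 0.117 over those fits. The average contrast already uses all libraries, so the fit of only the compared groups does not apply to it. At these depths and 3 libraries per group, the simulated vector comparison recovered 27% of genes changed 1.5-fold and 68% of those changed 2-fold. This holds for genes of at least 5 CPM and without a litter effect.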
